A study of Mus musculus with 6 samples.

Results

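The MHC class II antigen presentation genes described here are 8 genes of a table of 24394 named genes from mouse submandibular salivary gland. They are the chains H2-Ab1, H2-Aa and H2-Eb1, the peptide-loading chains H2-DMa, H2-DMb1 and H2-DMb2, the invariant chain Cd74 and the transactivator Ciita. They were picked by symbol, because class II genes were low 6 h after irradiation and back at 24 h in these same libraries. Their own time courses are therefore given as a description with standard errors and without a test. Wild-type C57BL/6 mice gave 3 groups of 2 libraries: unirradiated glands (T0, called control), glands taken 6 h after 5 Gy, and glands taken 24 h after 5 Gy. The labels do not give age, nor whether each library is a separate animal, so the spread between them may be partly technical. Values are FPKM, a fragment number divided by exon length and by library size, so levels of different genes can be set side by side.

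MHC class II molecules are pairs of an alpha and a beta chain that carry peptides from the endosome to the surface of antigen-presenting cells, where CD4 T cells read them. The invariant chain Cd74 fills the groove of new molecules, cathepsins cut it down to a short fragment, and H2-DM exchanges that fragment for antigenic peptides. Dendritic cells, B cells and activated macrophages carry most class II in a resting gland, and interferon gamma can induce it in other cells through Irf1 and Ciita. Ciita binds no DNA itself but docks on the RFX, CREB and NF-Y factors at the X and Y boxes of class II promoters. In C57BL/6 mice the E alpha partner of H2-Eb1 is a pseudogene, so surface class II is the pair made from H2-Aa and H2-Ab1.

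The gland label fits the epithelial markers: Aqp5, the acinar water channel, lay between 113.7 and 188.2 FPKM, and Epcam between 138.1 and 149.4 FPKM in the 6 libraries. The duct growth factor gene Egf was lowest at 909.4 FPKM. Libraries stood apart in other tissue. Amy1, the amylase of the parotid gland, was 18.4 FPKM in control replicate 1 and 17032 FPKM in 24 h replicate 2, the extremes of the 6, and Muc19, a mucin of sublingual gland, was 0.018 FPKM in control replicate 1 and 177.6 FPKM in control replicate 2. Lymph node stroma genes stood out in 24 h replicate 2, with Ccl19 at 43.9 FPKM and Glycam1 at 27.9 FPKM, against 2.39 and 0.241 FPKM in 24 h replicate 1. The control and 6 h values fell on steps of whole reads in 98.18% of 17452 genes, with about 11800000 to 12600000 reads per library. Such steps were not sought in the 24 h values, which were written with at most 6 digits in at least 99.99% of cases. The depth of the 24 h libraries is therefore unknown, and a difference in how their values were computed cannot be told apart from time. All FPKM summed to 677320 in 24 h replicate 1 and 1203218 in 24 h replicate 2. The control and 6 h libraries summed to between 866233 and 900281.

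The classical chains were the class II genes farthest below control at 6 h. H2-Aa, the alpha chain of the I-A molecule, had 87.5 and 97.8 FPKM in the controls, 0.926 and 1.41 FPKM after 6 h, and 6.22 and 129.5 FPKM after 24 h. H2-Ab1, its beta chain, had 63.1 and 64.4 FPKM in the controls, 4.01 and 5.27 FPKM after 6 h, and 54.2 and 109.7 FPKM after 24 h. H2-Eb1, the beta chain of I-E, had 39.5 and 40.4 FPKM in the controls, 0.840 and 1.05 FPKM after 6 h, and 1.83 and 50.1 FPKM after 24 h. For all 3 chains both 6 h libraries lay far below both controls, and at 24 h the libraries fell on both sides of the controls. Ratios of mean FPKM, 6 h over control, were 0.0126 for H2-Aa, 0.0236 for H2-Eb1 and 0.0727 for H2-Ab1.

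On the scale log2(FPKM + 1), the difference of 6 h minus control was -5.44 ± 1.19 for H2-Aa (SE of a limma fit over all genes, n = 2 each), -4.40 ± 1.19 for H2-Eb1 and -3.53 ± 0.31 for H2-Ab1. Among the 11674 genes that averaged 1 FPKM or more, these were the 3 lowest differences at 6 h, which is also what picked them. The wide SE of H2-Aa and H2-Eb1 includes the gap between their 24 h libraries, since the spread is shared over the groups. Between the closest and the farthest pair of libraries, the 6 h minus control difference of H2-Aa ran from -5.20 to -5.68, and that of H2-Eb1 from -4.31 to -4.49.

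**Figure D1:**
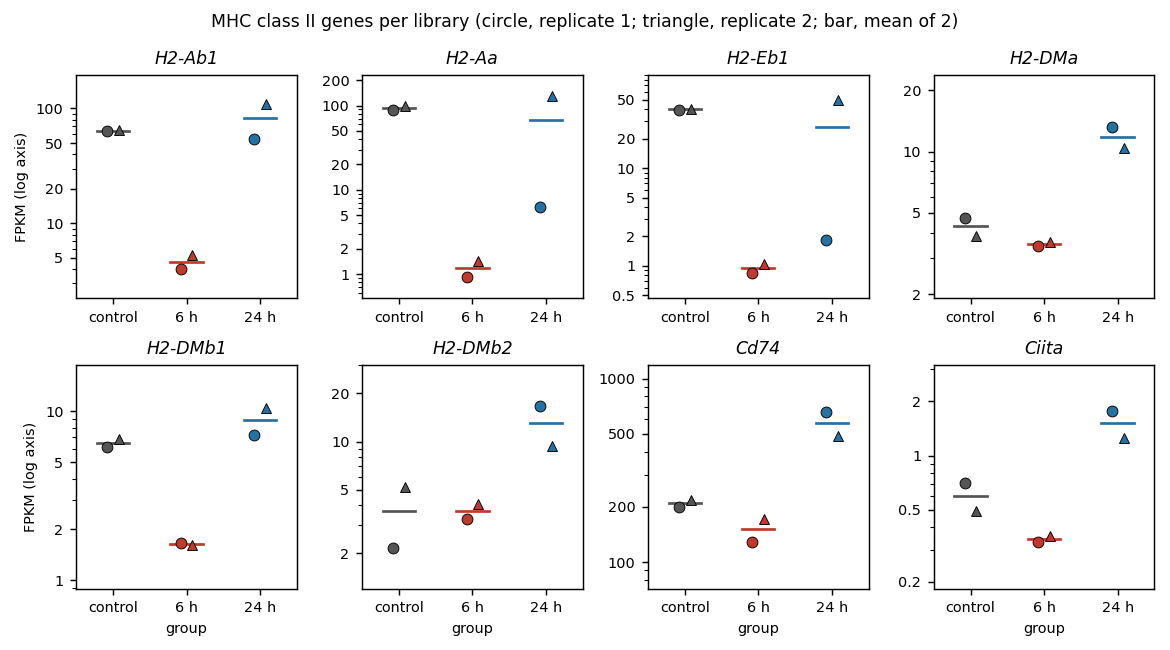
FPKM of the 8 class II genes on a log axis (y) in control, 6 h and 24 h libraries (x), 1 panel a gene; circles are replicate 1, triangles replicate 2 and bars the mean of 2. H2-Aa, H2-Eb1 and H2-Ab1 have the widest drop between control and 6 h, with 6 h means of 1.17, 0.944 and 4.64 FPKM, and at 24 h the libraries of H2-Aa (6.22 and 129.5 FPKM) and H2-Eb1 (1.83 and 50.1 FPKM) are far apart.

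Read numbers could be worked out for the control and 6 h libraries. H2-Aa rested on 12 reads (95% Poisson interval 6.20 to 21.0) and 19 reads (11.4 to 29.7) at 6 h, against 1154 and 1236 reads in control. H2-Eb1 rested on 17 and 22 reads at 6 h, against 814 and 797 reads in control. H2-Ab1 rested on 58 and 79 reads at 6 h, against 929 and 909 reads in control. The 6 h levels of these chains are thus low but above 0 in each library, and the intervals cover counting error only.

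The 24 h libraries disagreed on H2-Aa and H2-Eb1. H2-Aa was 20.8 times and H2-Eb1 27.4 times higher in 24 h replicate 2 than in 24 h replicate 1, while the ratio was 2.02 for H2-Ab1. Such gaps were not common: 178 of 11674 tested genes (1.52%) were at least 20 times lower in replicate 1 than in replicate 2, and 134 (1.15%) at least 20 times higher, around a median ratio of 0.982. H2-T23, a class I gene, showed a like gap, with 2.22 and 70.6 FPKM at 24 h against 74.8 and 74.7 FPKM in control. The other 5 class II genes had ratios of 0.557 to 1.46 between the 24 h libraries, so the gap did not extend to them.

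In 24 h replicate 1, then, H2-Aa and H2-Eb1 stayed far below control, and a return to control level was seen in replicate 2 alone. The mean difference of 24 h minus control was -1.61 ± 1.19 for H2-Aa, -1.77 ± 1.19 for H2-Eb1 and 0.27 ± 0.31 for H2-Ab1. Without 24 h replicate 1 these became 0.48, 0.32 and 0.77, and without 24 h replicate 2 they became -3.70, -3.86 and -0.23. The sign was kept in 11 of 12 alternative fits for H2-Aa and for H2-Eb1, and in 9 of 12 for H2-Ab1. It thus rested on 1 library for H2-Aa and H2-Eb1, and for H2-Ab1 it changed in other fits as well. Some of the 12 could not move this difference: no filter, the 2 groups alone, the replicate block and leaving out a 6 h library. The counts of kept signs therefore overstate how firm the sign was. The difference of 24 h minus 6 h was above 0 for all 3 chains with either 24 h library left out, at 1.74 to 5.92 for H2-Aa, 0.54 to 4.72 for H2-Eb1 and 3.30 to 4.30 for H2-Ab1.

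Within a library, the chains did not move in step, and ratios of FPKM in 1 library need no scaling between libraries. If the 24 h values were computed in another way, for example with other exon lengths, their ratios could still shift, which was not tested. H2-Aa over H2-Ab1 was 1.39 and 1.52 in the controls, 0.231 and 0.268 after 6 h, and 0.115 and 1.18 after 24 h. H2-Eb1 over H2-Ab1 was 0.626 and 0.627 in the controls, 0.210 and 0.199 after 6 h, and 0.0338 and 0.457 after 24 h. The alpha chain of the I-A molecule was thus above its beta chain in the controls and in 24 h replicate 2, and below it in both 6 h libraries and in 24 h replicate 1.

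The H2-DM genes, which encode the peptide exchange factor, split. H2-DMb1, a beta chain, had 6.19 and 6.85 FPKM in the controls, 1.67 and 1.61 FPKM after 6 h, and 7.19 and 10.5 FPKM after 24 h. H2-DMb2, the neighbouring beta chain gene, had 2.17 and 5.16 FPKM in the controls, 3.25 and 4.05 FPKM after 6 h, and 16.8 and 9.34 FPKM after 24 h. H2-DMa, the alpha chain, had 4.74 and 3.88 FPKM in the controls, 3.43 and 3.60 FPKM after 6 h, and 13.3 and 10.4 FPKM after 24 h. Of these, H2-DMb1 alone was clearly lower at 6 h, H2-DMb2 overlapped between 6 h and control, and all 3 were above both controls at 24 h.

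The 6 h minus control difference was -1.51 ± 0.18 for H2-DMb1, the 14th lowest of the 11674 tested genes, -0.23 ± 0.15 for H2-DMa and 0.07 ± 0.37 for H2-DMb2. That of H2-DMa was -0.11 without control replicate 1 and -0.35 without control replicate 2. That of H2-DMb2 was -0.41 without control replicate 1 and 0.55 without control replicate 2. At 24 h minus control the differences were 0.37 ± 0.18 for H2-DMb1, 1.27 ± 0.15 for H2-DMa and 1.62 ± 0.37 for H2-DMb2. That of H2-DMb1 was 0.61 without 24 h replicate 1 and 0.13 without 24 h replicate 2. H2-DMb1 over H2-DMb2, taken within each library, was 2.86 and 1.33 in the controls, 0.513 and 0.398 after 6 h, and 0.428 and 1.12 after 24 h. The order of the paired beta genes was therefore reversed at 6 h. H2-DMb1 and H2-DMb2 share sequence, with 22.7% and 24.8% of their 50-base stretches found in another gene, so reads may have been split between them and their separate levels are uncertain. H2-DMa overlaps the opposite-strand gene Brd2 at its 5′ end, and the sources used here do not say whether counting used strand.

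Cd74 was the most abundant of the 8 genes in every group and was little lower at 6 h. It had 200.3 and 219.0 FPKM in the controls, 129.1 and 172.5 FPKM after 6 h, and 662.1 and 487.5 FPKM after 24 h. Both 6 h libraries lay below and both 24 h libraries above the controls. The differences were -0.49 ± 0.20 for 6 h minus control, 1.44 ± 0.20 for 24 h minus control and 1.92 ± 0.20 for 24 h minus 6 h. The first of these was -0.28 without 6 h replicate 1 and -0.69 without 6 h replicate 2. It rested on 2216 and 3070 reads at 6 h, against 3497 and 3664 reads in control.

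Against the invariant chain, the classical chains were far lower at 6 h. H2-Aa over Cd74 was 0.437 and 0.447 in the controls, 0.00717 and 0.00819 after 6 h, and 0.00939 and 0.266 after 24 h. H2-Ab1 over Cd74 was 0.315 and 0.294 in the controls, 0.0310 and 0.0305 after 6 h, and 0.0818 and 0.225 after 24 h. H2-Eb1 over Cd74 was 0.197 and 0.184 in the controls, 0.00650 and 0.00608 after 6 h, and 0.00276 and 0.103 after 24 h. None of the 6 ratios at 24 h reached its control values, in either library, while Cd74 itself stood above control. A difference in how the 24 h values were computed could shift these ratios too.

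Ciita, the master transactivator, was low in every library. It had 0.703 and 0.493 FPKM in the controls, 0.330 and 0.358 FPKM after 6 h, and 1.77 and 1.26 FPKM after 24 h. The groups did not overlap, with 6 h lowest and 24 h highest. Its mean was under 1 FPKM, so 7 of the 8 class II genes entered the fit, and Ciita is given as a plain difference of means on the log2(FPKM + 1) scale: -0.25 for 6 h minus control, 0.65 for 24 h minus control and 0.90 for 24 h minus 6 h. The first of these was -0.15 without control replicate 1 and -0.34 without control replicate 2. It rested on 24 and 27 reads at 6 h, against 52 and 35 reads in control, and the 95% Poisson interval of 17.8 to 39.3 around 27 reads overlaps that of 24.4 to 48.7 around 35 reads.

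The order of levels changed between groups. In control it ran Cd74, H2-Aa, H2-Ab1, H2-Eb1, H2-DMb1, H2-DMa, H2-DMb2 and Ciita, and only H2-DMa and H2-DMb2 were neighbours whose libraries overlapped. At 6 h it ran Cd74, H2-Ab1, H2-DMb2, H2-DMa, H2-DMb1, H2-Aa, H2-Eb1 and Ciita, so that H2-Aa came below all 3 H2-DM genes. At 6 h the libraries of H2-Ab1 and H2-DMb2 overlapped, as did those of H2-DMb2 and H2-DMa and those of H2-Aa and H2-Eb1, so none of these pairs differed beyond its spread. At 24 h the mean order was Cd74, H2-Ab1, H2-Aa, H2-Eb1, H2-DMb2, H2-DMa, H2-DMb1 and Ciita, but every neighbouring pair from H2-Ab1 to H2-DMb1 overlapped between libraries.

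Over the 8 genes, the median difference was -0.997 for 6 h minus control, with 7 below 0 and 4 below -1, beside a median of -0.02 over all tested genes. It was 0.51 for 24 h minus control, beside 0.20 over all tested genes, and 1.90 for 24 h minus 6 h, beside 0.22. Both 6 h libraries lay below both controls for 7 of the 8 genes, where 24.9% of all tested genes did so. Both 24 h libraries lay above both controls for 5 of the 8, where 53.1% of all tested genes did so, and above both 6 h libraries for 8 of the 8, where 56.0% did so. The 3 comparisons share libraries and picked the genes, so nothing is read from these counts. The shift of all genes at 24 h depends on scaling: with median-of-ratios factors the all-gene median of 24 h minus control was -0.03, and Cd74 and H2-DMa were then 1.16 and 1.02 above control; with quantile normalization they were 0.74 and 1.05 above it, and H2-DMb1 was 0.15 above it.

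The label's fall and return thus held for H2-Ab1 and H2-DMb1 in both libraries of each group, and for H2-Aa and H2-Eb1 in 24 h replicate 2 only. H2-DMa, H2-DMb2, Cd74 and Ciita were mainly higher at 24 h than in control.

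The H2 genes lie together on chromosome 17 in the mm10 build, with positions from GENCODE M21. H2-DMa spans chr17:34119541-34139101, H2-DMb2 chr17:34143307-34151555, and H2-DMb1 chr17:34153072-34160230, all on the plus strand. H2-Ab1 spans chr17:34257689-34269419 on the plus strand, H2-Aa chr17:34282744-34287823 on the minus strand, and H2-Eb1 chr17:34305867-34316674 on the plus strand. The 3 classical chain genes are side by side within 59.0 kb. Cd74 lies on chromosome 18 and Ciita at chr16:10480059-10528418.

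Apart from the class II genes, which are described without a test, no tested gene of the stretch passed at 6 h. From H2-K1 to Notch4, a stretch of 592 kb, 18 of 31 genes of the table averaged 1 FPKM or more, and 12 of these were not class II members. Their 6 h minus control differences lay between -0.54 (H2-K1 and H2-Ke6) and 0.53, with a median of 0.08. In the limma test 0 of the 12 passed an adjusted p of 0.05, which is near the 1.01% of all tested genes. In this fit a large difference with a wide SE, as for H2-Aa and H2-Eb1, need not pass. Not passing therefore does not set the 12 apart from the class II genes. At an unadjusted limma p under 0.05, 1 was higher and 1 lower. Among the 12 were all 4 tested genes between H2-DMb1 and H2-Ab1, the immunoproteasome subunits Psmb9 and Psmb8 and the peptide transporters Tap1 and Tap2. H2-Ob, the H2-DO beta chain that restrains H2-DM, lies next to H2-Ab1 and was under the filter, with 0.425 and 0.570 FPKM in the controls, 0.0618 and 0.149 FPKM after 6 h, and 0.704 and 0.900 FPKM after 24 h. H2-Ea-ps, the E alpha pseudogene next to H2-Eb1 and H2-Eb2, had 0.621 and 2.70 FPKM in the controls, 1.90 and 2.44 FPKM after 6 h, and 3.79 and 2.57 FPKM after 24 h. The 6 h and control libraries of H2-Ea-ps thus overlapped, and those of H2-Ob did not.

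**Figure D2:**
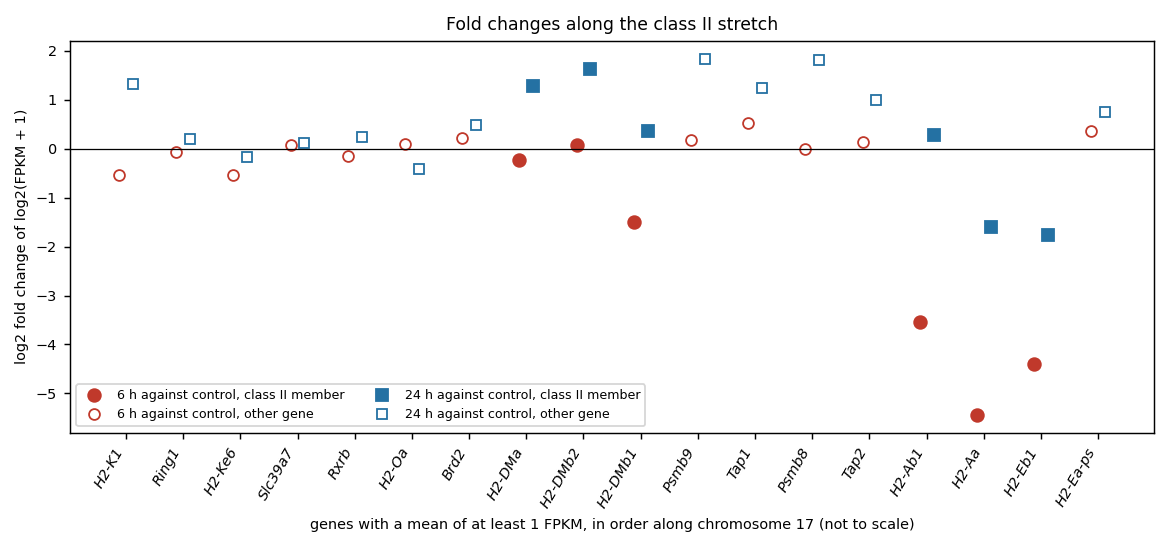
Difference in log2(FPKM + 1) against control (y) for the 18 genes that averaged 1 FPKM or more, in their order along chromosome 17 (x, not to scale); circles are 6 h, squares 24 h, filled for class II genes and open for others. At 6 h the 12 open circles lie between -0.54 and 0.53, while H2-Ab1, H2-Aa and H2-Eb1 lie at -3.53, -5.44 and -4.40.

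Promoter sequence is shown because the paired H2-DMb genes differed at 6 h and because the classical chains were low together with one of them. RefSeq (GRCm38.p6) windows from 250 bases before to 50 after a start were at hand for 5 of the genes used here, H2-DMa with 2 windows, and H2-Ab1 and Ciita were not among them. Below are 81 bases around the Y box of 4 genes on the gene's own strand, with capitals for the letters of the X box (AG, any 2 bases, then ACNGATG; the shorter form is ACNGATG alone) and of the Y box (ATTGG). They come from chr17:34287851-34287931 (minus strand), chr17:34305748-34305828, chr17:34153070-34153150 and chr17:34145099-34145179 in the order given.
H2-Aa: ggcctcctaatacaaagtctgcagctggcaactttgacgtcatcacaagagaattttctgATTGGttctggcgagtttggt
H2-Eb1: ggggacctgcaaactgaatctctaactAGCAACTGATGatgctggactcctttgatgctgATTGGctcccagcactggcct
H2-DMb1: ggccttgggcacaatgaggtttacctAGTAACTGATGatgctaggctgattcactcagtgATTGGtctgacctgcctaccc
H2-DMb2: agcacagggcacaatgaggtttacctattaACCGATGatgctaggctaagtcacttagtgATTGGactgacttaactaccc

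Both strands were searched, and every match of the longer X box also holds the shorter one. H2-Eb1 and H2-DMb1 held the longer X box, which 0.968% of 32851 promoters held, and a Y box, which 37.4% held; both together were in 0.387%. H2-DMb2 held only the shorter X box, found in 9.85% of promoters, at the place where H2-DMb1 has the longer one, with 23 bases between X and Y in each. H2-Eb1 had 22 bases between them. H2-Aa had the Y box and, on the other strand outside the printed bases, the shorter X box, without the longer one, and H2-DMa had a Y box in 1 of 2 windows and no X box. A match is a run of letters and not a measured binding site. Other spellings of the boxes were not searched, so a promoter without a match, such as that of H2-Aa, may still hold an X box.

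Of the rest of the class II pathway, no tested gene passed at 6 h. With 2 libraries a group few genes passed at all, so this does not set them apart from the class II genes. The 6 lists held 42 tested genes: the RFX, CREB and NF-Y factors, other class II genes, endosomal processing, interferon gamma signalling, co-stimulation, and MHC class I presentation. Between 6 h and control, 0 of 42 passed (limma, Benjamini-Hochberg adjusted p under 0.05), with 5 higher and 2 lower at an unadjusted p under 0.05, and 1.01% of all tested genes passed. The list medians at 6 h lay between -0.30 (co-stimulation) and 0.23 (other class II genes, 2 of 4 tested). In that last list H2-Ob, under the filter, was lower at 6 h without overlap, as given above, and H2-Eb2, also under it, overlapped.

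The genes nearest to passing at 6 h are given as values. The factors that dock Ciita had small differences at 6 h, with Nfyb the first by p at 0.33 ± 0.14 (limma adjusted p = 0.341). In the endosome, Ifi30, the thiol reductase that unfolds antigens, had 0.56 ± 0.15 (limma adjusted p = 0.179), and Ctss, the cathepsin that trims the invariant chain, -0.37 ± 0.13 (limma adjusted p = 0.28). Of the interferon gamma genes, the receptor chain Ifngr2 had 0.63 ± 0.12 (limma adjusted p = 0.0898). Of the class I genes, the peptide transporter Tap1 had 0.53 ± 0.10 and its partner Tapbp 0.50 ± 0.10 (limma adjusted p = 0.0957 each). Irf1 had 6.38 and 6.60 FPKM at 6 h, against 6.75 and 9.59 FPKM in control.

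At 24 h against control, 24 of the 42 pathway genes rose and 1 fell, where 25.3% of all tested genes passed in either direction. In the class I list 9 of 10 genes were higher and the median was 1.28. Its first gene by p, H2-D1, a classical heavy chain, had 978.3 and 720.2 FPKM at 24 h, against 86.3 and 75.9 FPKM in control, a difference of 3.36 ± 0.17 (limma adjusted p = 9.7e-05). Psmb9 (1.84 ± 0.20), Psmb8 (1.82 ± 0.19), B2m (1.54 ± 0.18), Tap1 (1.24 ± 0.10), Tap2 (0.99 ± 0.09), H2-K1 (1.32 ± 0.24), Tapbp (0.57 ± 0.10) and Nlrc5 (0.96 ± 0.13), the class I counterpart of Ciita, also rose. Of these 9, all passed in every alternative fit except B2m (lost with quantile normalization), H2-K1 (lost with it and without control replicate 2) and Tapbp (lost with both rescalings and without 24 h replicate 2).

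In the endosomal list 6 of 8 tested genes rose at 24 h and the median was 0.87. Ctse, the list's gene under the filter, had 0.217 and 0.372 FPKM at 24 h, against 1.18 and 0.957 FPKM in control. It was thus lower without overlap, and it was not tested. Ctss had 106.6 and 126.0 FPKM at 24 h, against 45.1 and 40.4 FPKM in control, a difference of 1.42 ± 0.13 (limma adjusted p = 0.00095). Ifi30 (1.20 ± 0.15), the asparagine protease Lgmn (1.14 ± 0.14) and Ctsh (0.85 ± 0.10) rose in every alternative fit as well, while Ctsz (0.89 ± 0.16) and Ctsl (0.49 ± 0.10) were both lost without control replicate 1 and without 24 h replicate 2, among others. The time at which these proteases were higher is the one at which Cd74 and H2-DMa were also above control.

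In the interferon gamma list 6 of 10 genes rose at 24 h and the median was 0.41. Irf1, a transcription factor that acts on a Ciita promoter, had 22.4 and 20.6 FPKM at 24 h, against 6.75 and 9.59 FPKM in control, a difference of 1.31 ± 0.16 (limma adjusted p = 0.00272). The feedback inhibitor Socs1 rose by 1.39 ± 0.22 (limma adjusted p = 0.00713). It had 0.545 and 0.379 FPKM in control, 0.123 and 0.0594 FPKM after 6 h, and 2.21 and 3.56 FPKM after 24 h. Socs1 thus passed the filter only through its 24 h values. At this control level a gene that did not rise was not tested, so its call carries little weight in the count. Socs1 had too low a mean to be tested without either 24 h library. Ifngr1 (0.49 ± 0.13), Usf1 (0.41 ± 0.11) and Ifngr2 (0.41 ± 0.12) passed narrowly and were lost in most alternative fits. The count of the list was 3 without either 6 h library and with either rescaling, 2 without 24 h replicate 1 and 1 without 24 h replicate 2.

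Of the docking factors of Ciita, 2 of 7 passed at 24 h, near the 25.3% of all tested genes. Nfyb, an NF-Y subunit, was higher by 0.61 ± 0.14 (limma adjusted p = 0.0227), and Rfxank, an RFX subunit, was lower, at -0.59 ± 0.11 (limma adjusted p = 0.0147). The other 5 of the 7 factors did not pass. Both calls were lost without either 24 h library and without control replicate 1, and that of Nfyb also without control replicate 2 and with both rescalings. Of the co-stimulation list, Cd86 (1.10 ± 0.24) and the checkpoint ligand Cd274 (1.03 ± 0.25) rose, 2 of 5, and both were lost without control replicate 1, without 24 h replicate 2, with no filter and with both rescalings. Cd274 was also lost without control replicate 2, without either 6 h library and with the 2 groups alone. Like Socs1, Cd274 passed the filter through its 24 h values, with control and 6 h means of 1.07 and 0.523 FPKM. Of the other class II genes, 0 of 2 passed in the limma test and 0 at an unadjusted p under 0.05. H2-Oa, the H2-DO alpha chain, had 2.07 and 1.67 FPKM at 24 h, against 2.32 and 3.39 FPKM in control.

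Between 24 h and 6 h, 22 of the 42 pathway genes were higher and 1, Rfxank, was lower, where 27.7% of all tested genes passed. This included 8 of 10 class I genes, 7 of 8 endosomal genes, 4 of 10 interferon gamma genes (Irf1, Socs1 and Irf8 among them) and 3 of 5 co-stimulation genes (Cd274, Cd86 and Fscn1). Socs1 and Cd274 entered the fit through their 24 h values. Ctse, under the filter and not tested, was lower at 24 h than at 6 h without overlap. Ctss was 1.79 ± 0.13 higher at 24 h than at 6 h (limma adjusted p = 0.000407). Without 6 h replicate 1 the count of 23 was 15, the endosomal count was 4 without either 6 h library or 24 h replicate 2, and the co-stimulation count was 0 without either 6 h library. The comparison shares its 24 h libraries with the one above. The count of pathway genes called at 24 h against control was 14 without 24 h replicate 2, 17 without control replicate 1, 17 with median-of-ratios factors and 15 with quantile normalization, against 25 as deposited, and all but 1 of the 14 and all of the others were among the 25.

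**Figure D3:**
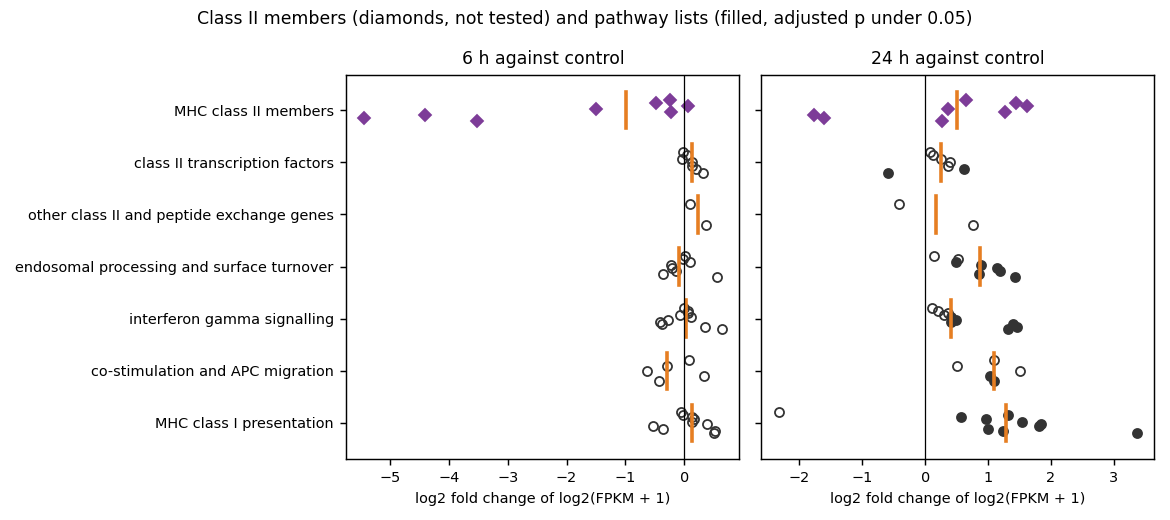
Difference in log2(FPKM + 1) (x) for 6 h against control and 24 h against control, by gene list (y); diamonds are the 8 class II genes, circles pathway genes (filled where the adjusted p is under 0.05), and orange bars list medians. At 6 h no circle is filled and the lowest diamonds are at -5.44, -4.40 and -3.53, while at 24 h 25 circles are filled, 24 of them above 0.

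In bulk gland, fewer class II cells and less class II RNA per cell cannot be told apart, so markers of the cells that carry class II are set beside it. The 9 pan-leukocyte genes summed to 89.5 and 117.3 FPKM in the controls, 61.1 and 90.6 FPKM after 6 h, and 417.4 and 429.4 FPKM after 24 h. The 15 macrophage and monocyte genes summed to 326.9 and 347.3 FPKM in the controls, 226.1 and 292.9 FPKM after 6 h, and 858.2 and 1058 FPKM after 24 h. The 11 dendritic cell genes summed to 15.2 and 16.7 FPKM in the controls, 7.57 and 10.99 FPKM after 6 h, and 16.7 and 18.5 FPKM after 24 h. The ratio of mean sums, 6 h over control, was 0.734, 0.770 and 0.581 for these lists, against 0.396 for the 8 class II genes and 0.0126 for H2-Aa.

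Lymphocyte markers differed between the T and B lists. The 10 T cell genes summed to 9.003 and 12.2 FPKM in the controls, 3.54 and 4.69 FPKM after 6 h, and 21.4 and 35.0 FPKM after 24 h. The 10 B cell genes summed to 1.43 and 6.54 FPKM in the controls, 2.64 and 3.82 FPKM after 6 h, and 3.56 and 16.2 FPKM after 24 h. T cell sums were lower in both 6 h libraries than in both controls, while B cell sums overlapped. B cell markers were lowest in control replicate 1, where H2-Aa stood at 87.5 FPKM, and were highest in 24 h replicate 2, where H2-Aa and H2-Eb1 were highest.

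Of the marker genes tested at 6 h against control, 1 of 15 macrophage genes passed, Mrc1, a mannose receptor, with 3.66 and 3.35 FPKM at 6 h against 6.37 and 6.77 FPKM in control (-0.75 ± 0.11, limma adjusted p = 0.0459). That call was lost with any 1 of the 6 libraries left out. No gene passed among 4 dendritic cell, 5 T cell, 2 B cell, 9 pan-leukocyte and 3 lymph node stroma genes in the limma test, with 2, 3, 0, 3 and 0 of them lower at an unadjusted p under 0.05. The largest of these lower values were Cd3g of T cells at -1.18 ± 0.21 (limma adjusted p = 0.0832) and Coro1a of leukocytes at -1.04 ± 0.20 (limma adjusted p = 0.0957). The list medians at 6 h were -0.88 for T cells, -0.42 for dendritic cells, -0.32 for leukocytes, -0.28 for macrophages and 0.03 for B cells.

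Of the 7 dendritic cell genes under the filter, both 6 h libraries lay below both controls for 4. Among all tested genes 24.9% did so, but those are above the filter and so are not a like set. Flt3, a growth factor receptor of dendritic cells, had 0.0226 and 0.0217 FPKM at 6 h, against 0.199 and 0.324 FPKM in control. Clec9a, a receptor of cross-presenting dendritic cells, had 0.1001 and 0.0965 FPKM at 6 h, against 0.664 and 0.436 FPKM in control. Xcr1, a chemokine receptor of the same cells, had 0.0185 and 0.0536 FPKM at 6 h, against 0.164 and 0.152 FPKM in control. Zbtb46, a dendritic cell transcription factor, had 0.223 and 0.358 FPKM at 6 h, against 0.292 and 0.355 FPKM in control, and so overlapped. Batf3, a transcription factor of cross-presenting dendritic cells, had 0.116 and 0.223 FPKM at 6 h, against 1.37 and 0.356 FPKM in control, without overlap. Siglech and Cd207 overlapped, and Cd207 was at 0 in both controls. These 7 genes are too low for the fit and were not tested. Their read numbers are not given, and values this low may rest on few reads.

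Levels per unit of the leukocyte gene Ptprc (CD45) are given as a description. Cd74 over Ptprc was 49.3 and 40.1 in the controls, 72.7 and 66.4 after 6 h, and 79.4 and 41.7 after 24 h. H2-Ab1 over Ptprc was 15.5 and 11.8 in the controls, 2.26 and 2.03 after 6 h, and 6.498 and 9.39 after 24 h. H2-Ab1 was thus low at 6 h per unit of CD45 as well. The ratio of mean FPKM, 6 h over control, was 0.459 for Ptprc, 0.719 for Cd74 and 0.0727 for H2-Ab1, beside 0.734 for the pan-leukocyte sum, so the place of Cd74 depends on the marker it is set against. What part cell number had in either was not tested.

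At 24 h against control, leukocyte markers rose in the limma test. Higher were 9 of 9 pan-leukocyte genes (median 1.57), 10 of 15 macrophage genes (median 0.69) and 3 of 5 T cell genes (median 1.09). In these lists 0 tested genes were lower. Of all tested genes 25.3% passed, 2451 of 2953 of them higher, and the all-gene median was 0.20. The T cell genes Lck and Cd4 entered the fit through their 24 h values. Their control and 6 h means were 1.10 and 0.142 FPKM for Lck, and 0.758 and 0.617 FPKM for Cd4. Genes as low that did not rise were not tested. Among T cell genes under the filter, Foxp3 was lower at 24 h without overlap, Cd28 overlapped, and Cd3d, Cd5 and Cd8a were higher without overlap. Tyrobp, a signalling adaptor of myeloid cells, rose by 1.96 ± 0.14 (limma adjusted p = 0.00037), C1qc, a complement gene of macrophages, by 1.71 ± 0.15 (limma adjusted p = 0.000877) and Lck, the T cell kinase, by 1.17 ± 0.20 (limma adjusted p = 0.00944), each in every alternative fit. The pan-leukocyte count was 2 of 9 without 24 h replicate 2, 4 without 24 h replicate 1, 5 without control replicate 1 and 5 with median-of-ratios factors. The macrophage count was 5 of 15 without either 24 h library, without control replicate 1 and with either rescaling. The T cell count was 1 of 5 without 24 h replicate 2.

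The dendritic and B cell lists had 4 and 2 tested genes at 24 h. Itgax (CD11c) was higher by 0.60 ± 0.14 (limma adjusted p = 0.0286), 1 of 4 dendritic cell genes, near the share of all tested genes, a call lost without either control or either 24 h library, and the list median was -0.06. Of the B cell genes 0 of 2 passed in the limma test, and 0 at an unadjusted p under 0.05. Of the lymph node stroma genes, Cxcl13 passed, 1 of 3, with 7.14 and 85.3 FPKM at 24 h against 1.05 and 1.53 FPKM in control, and Ccl21a was at 0 in all 6 libraries. The stroma list summed to 9.77 and 157.5 FPKM at 24 h, against 1.16 and 1.53 FPKM in control. Its high library is the one in which H2-Aa and H2-Eb1 were at control level, and its part in that was not tested. Of the gland epithelium list 2 genes were higher (Ascl3, Klk1) and 2 lower (Egf among them) of 10, and of the neighbouring gland and fat list Krt10 alone was higher, 1 of 4. The calls of Cxcl13, Klk1 and Krt10 were lost in most alternative fits that leave out 1 library.

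**Figure D4:**
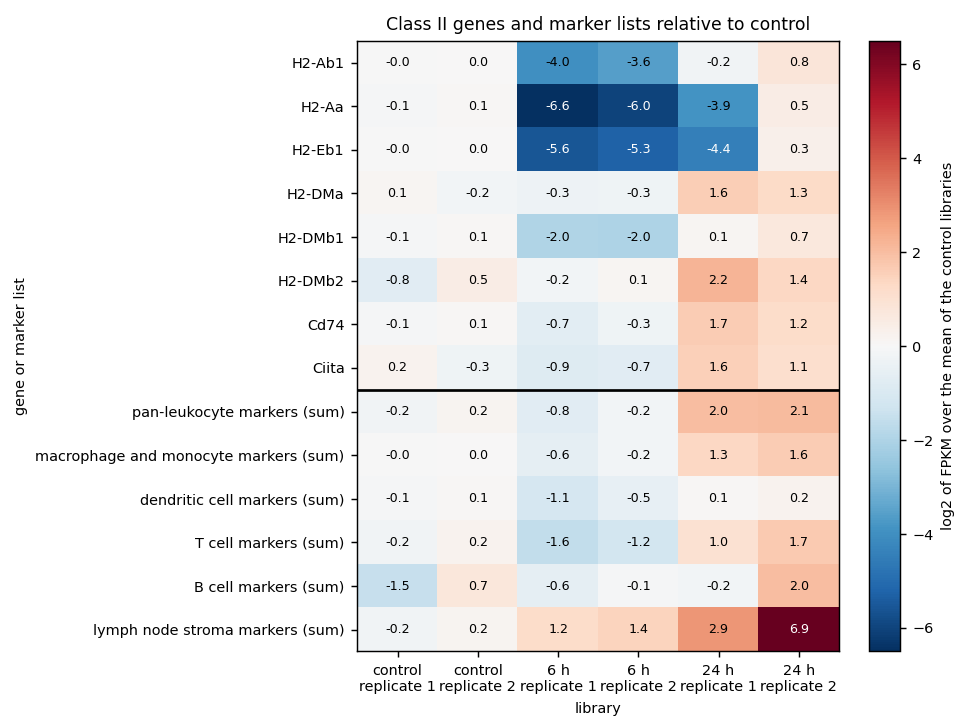
Log2 of FPKM over the control mean (colour and cell text) for the 8 class II genes and for 6 summed marker lists (rows) in each of the 6 libraries (columns). The classical chains are the darkest cells at 6 h, and in 24 h replicate 1 H2-Aa and H2-Eb1 stay dark while leukocyte and macrophage sums are above control.

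The gene profiles most like that of the class II set were sought over the 6 libraries, as a description. Pearson r with the mean standardised profile of the 8 genes was highest for Rcn3 (0.9977), Emp1 (0.9975), Mapre1 (0.9969), P2ry12 (0.9966) and U2af1 (0.9944), among 11137 candidates. Emp1, an epithelial membrane protein, had 13.6 and 13.8 FPKM in the controls, 5.68 and 6.89 FPKM after 6 h, and 20.7 and 22.5 FPKM after 24 h. P2ry12, a purinergic receptor, had 1.01 and 1.16 FPKM in the controls, 0.494 and 0.544 FPKM after 6 h, and 1.44 and 1.56 FPKM after 24 h. The class II genes themselves correlated less with their own mean, between 0.612 for H2-Eb1 and 0.969 for H2-DMb1, so they did not share a single profile. The 6 points are 3 groups of 2 libraries.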

How the data were processed

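RNA sequencing libraries (6) of submandibular gland were compared in 3 groups of 2, taken from the sample labels. Per the submitters' processing notes, TopHat2 2.1.0 and Cufflinks 2.2.1 were used with the mm10 build; the authors deposited gene FPKM, used here as they stand. Of 24421 table entries, 27 whose symbol had become a number were left out. Values were taken as log2(FPKM + 1), which understates changes of low genes, and the 11674 genes averaging 1 FPKM or more were fitted with limma 3.58.1 (R 4.3.3; empirical Bayes with trend, 3 residual degrees of freedom, two-sided, Benjamini-Hochberg over all tested genes, threshold 0.05). The fit used all 6 libraries with a mean per group. FPKM are not counts, so no count test was run. The step size of the control and 6 h FPKM gave whole reads (relative tolerance 1e-06). Positions are from GENCODE M21, promoters from RefSeq. The limma step was tested on simulated data. The class II genes, the lists and the tests were chosen with earlier results of these data known. Named are the 8 class II genes; of each list, genes past the threshold and the 3 of smallest p, of which the text gives those that carry the result; and the 5 genes of most similar profile. March1, March8 and some other list genes are not reported here. Alternatives were the pseudocount, the filter, 2 scalings, the 2 groups alone, a replicate block and leaving out each library.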

Additional observations from a re-analysis of the deposited data

How the results depend on the processing

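For 6 h against control, 118 genes passed as deposited, 68 with no filter and 31 with the 2 groups alone; leaving out 1 library gave 12 to 63. For 24 h against control, 2953 passed (2451 higher and 502 lower), 1929 with quantile normalization (987 higher and 942 lower), and 1262 to 2358 with 1 library left out; median-of-ratios factors gave 1091 higher and 970 lower. For 24 h against 6 h, 3237 passed (2734 higher and 503 lower), 1413 to 3293 with 1 library left out, and 1249 higher and 1106 lower with median-of-ratios factors. The median difference of the 8 class II genes was -1.28, 0.81 and 2.13 (6 h and 24 h against control, 24 h against 6 h) with a pseudocount of 0.1; 0.31 and 1.63 (24 h against control, 24 h against 6 h) with median-of-ratios factors; and 0.34 and 1.48 with quantile normalization. With 1 library left out it was -1.09 to -0.90, 0.46 to 0.69 and 1.70 to 1.99. The shorter X box raised the promoter share to 9.85%. The cause of these shifts was not tested. No median changed sign. Depth limits H2-Aa, H2-Eb1 and Ciita at 6 h, and the depth at 24 h is unknown.

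The groups share replicate numbers, which no label says pair the samples. Same-numbered libraries deviated together with correlations of 0.466 (control and 6 h), 0.311 (control and 24 h) and 0.167 (6 h and 24 h). Amy1 was lower in replicate 1 than in replicate 2 of all 3 groups. With the replicate block, which cannot change the group differences here, 104, 3001 and 3351 genes passed. At 6 h it lost Mrc1, and 1 T cell and 2 pan-leukocyte genes were lower; at 24 h against control it lost Cd4, Fcgr1, Mrc1, Ifngr2 and Usf1, with 8 macrophage and 4 T cell genes higher.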
